A study of Mus musculus with 6 samples.

Results

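Interleukin-1 (IL-1) signalling was read here through 8 genes, chosen by symbol among the 32285 genes of the count tables: the ligands Il1a, Il1b, Il1f9 and Il18, the antagonist Il1rn, the signalling receptor Il1r1, its co-receptor Il1rap, and the decoy receptor Il1r2. All 8 had UMIs (unique molecular identifiers, each 1 captured RNA molecule) in each of the 6 libraries. The libraries came from female C57BL/6 mice carrying KPCA tumors, a mouse ovarian cancer line injected into the ovarian bursa, and 1 mouse was sequenced per treatment with droplet 10x 3′ chemistry. The control mouse received solvent and rat IgG, and the other mice received 2DG (2-deoxy-D-glucose, used in the study to inhibit branched N-glycans), 2FF (2-fluoro-fucose, a fucosylation inhibitor, with which the injected tumor cells were also pre-treated), anti-PD-L1 antibody, 2DG plus anti-PD-L1, or 2FF plus anti-PD-L1. The sample labels name the 2FF compound as 2F-Peracetyl-Fucose, while the study names 2-fluoro-L-fucose. GEO's labels give the tissue as lymph node and the design text speaks of young and aged mice, while the study describes tumors. A list of 6 lymph node stroma genes summed to between 1.14 and 12.3 CPM over the cells of each library, with 0 to 3 of the genes at 0. In the highest library, 2DG plus anti-PD-L1, 476 of its 781 UMIs lay in gated macrophages. Cells gated as epithelial tumor numbered 0 to 16 per library. Lymph node stroma RNA and gated tumor cells were thus both scarce. Fibroblast-gated cells were 0 to 8 per library and 0 were gated as endothelial, so these values do not settle the tissue. B cells were 0.882% to 4.78% of the cells, and CD8 T cells 1.3% in control and 14.6% to 22.1% in the treated libraries. Neutrophils were 2.74% to 33.5%, classical monocytes 13.6% to 26.2% and macrophages 10.5% to 17.9%. The study's supplement describes the sequenced cells as components of KPCA orthotopic tumors. CPM is the UMIs of a gene scaled by the total UMIs of the cells they were summed over, so that it can be compared between sums of different depth.

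Il1b is made as an inactive precursor and cut by inflammasome caspases before release, whereas Il1a is active without that cut. Both bind the receptor encoded by Il1r1, which signals through the adaptor Myd88 once the accessory chain encoded by Il1rap joins. Il1rn encodes the receptor antagonist, which occupies the receptor without recruiting that chain, and Il1r2 encodes a receptor that binds the ligands but has no signalling domain. Il1f9, also called Il36g, encodes the IL-36 gamma ligand, which signals through another receptor with the same accessory chain. Il18 acts through its own receptor pair and is held in check by the binding protein encoded by Il18bp. Neutrophils, monocytes and macrophages are well-known sources of these ligands, and the decoy is known from neutrophils and regulatory T cells.

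The members lie in small chromosomal groups in the mouse genome (GRCm38, the build mm10). Il1a (ENSMUSG00000027399, chr2:129299610-129309972, minus strand) and Il1b (ENSMUSG00000027398, chr2:129364570-129371139, minus strand) are separated by 54597 bases. Il1f9 (ENSMUSG00000044103, chr2:24186476-24193568, plus strand) and Il1rn (ENSMUSG00000026981, chr2:24336853-24351494, plus strand) are 143284 bases apart. Il1r2 (ENSMUSG00000026073, chr1:40074079-40125231, plus strand) and Il1r1 (ENSMUSG00000026072, chr1:40225080-40317257, plus strand) are 99848 bases apart. Il18 (ENSMUSG00000039217) is at chr9:50554827-50581840 and Il1rap (ENSMUSG00000022514) at chr16:26581704-26730117, both on the plus strand. Il1a, Il1b, Il18, Il1rap and Il1r2 overlap an annotated gene of the opposite strand that is also in the count table, and since strand use of the counting is not given in the sources used here, UMIs of such pairs are uncertain.

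The 250 bases before the RefSeq start (GRCm38.p6) are shown for 4 of the members that had their highest level in neutrophils. Il1rn and Il1rap were also highest there, and their windows are not printed. In the first 3 windows shown, capitals mark matches to short motifs. In that of Il1r2 they mark the bases that lie inside Gm16894, a gene of the opposite strand.
Il1a, chr2:129309973-129310222, minus strand: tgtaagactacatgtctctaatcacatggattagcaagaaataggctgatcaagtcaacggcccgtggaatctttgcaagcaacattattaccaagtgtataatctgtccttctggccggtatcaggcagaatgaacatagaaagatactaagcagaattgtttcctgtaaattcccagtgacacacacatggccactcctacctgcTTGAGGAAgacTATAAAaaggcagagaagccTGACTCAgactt
Il1b, chr2:129371140-129371389, minus strand: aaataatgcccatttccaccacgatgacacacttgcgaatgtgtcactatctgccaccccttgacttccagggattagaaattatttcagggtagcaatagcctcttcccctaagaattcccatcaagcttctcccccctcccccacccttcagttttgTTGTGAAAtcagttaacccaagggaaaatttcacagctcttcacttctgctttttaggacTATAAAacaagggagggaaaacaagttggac
Il1f9, chr2:24186226-24186475, plus strand: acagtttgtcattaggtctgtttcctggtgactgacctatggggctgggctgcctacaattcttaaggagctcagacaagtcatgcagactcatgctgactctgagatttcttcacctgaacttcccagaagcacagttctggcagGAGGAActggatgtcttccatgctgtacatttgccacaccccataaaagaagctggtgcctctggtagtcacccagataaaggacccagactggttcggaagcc
Il1r2, chr1:40085843-40086092, plus strand: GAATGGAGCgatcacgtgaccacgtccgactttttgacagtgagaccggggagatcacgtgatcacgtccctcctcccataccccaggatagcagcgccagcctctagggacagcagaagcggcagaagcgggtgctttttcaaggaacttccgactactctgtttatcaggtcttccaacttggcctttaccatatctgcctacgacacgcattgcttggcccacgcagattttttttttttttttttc
Both strands were searched for AP-1 (TGANTCA, in 6.75% of 32851 RefSeq windows of the same length), a kappa B frame (GGG and CC with 5 free bases between, 45.8%), a PU.1 core (GAGGAA, 23.3%), a C/EBP frame (TTNNGNAA, 36.8%) and TATAAA (12.4%). The Il1a window held AP-1 from base -12, TATAAA from -32, and a C/EBP frame from -43 that overlaps a PU.1 core from -41, counted from the gene start. The Il1b window held TATAAA from -31 and a C/EBP frame from -91. TATAAA on the gene's own strand that begins 20 to 40 bases upstream was found in 1.99% of all windows. The Il1f9 window held a PU.1 core from -104, and the Il1r2 window held none of the 5 motifs. Over the 11 windows of the 8 members, AP-1 was found in 2 members, the kappa B frame in 3, the PU.1 core in 2, the C/EBP frame in 4 and TATAAA in 3. These matches are descriptions of the letters and not binding sites.

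Cells with at least 250 genes and at most 5% mitochondrial UMIs were kept, 7703 to 9222 per library from 61859753 to 73885214 UMIs, and 78.6% to 84.6% of them were gated into classes by marker genes, none of them a member. Cells with markers of a pair of classes, 5.25% to 7.06%, and cells with too few markers, 8.43% to 14.4%, stayed unassigned. In every library 8 of 8 neutrophil, 6 of 6 monocyte and 8 of 8 macrophage markers were detected in at least 10% of the cells given those names. These are the gating markers, of which a cell needed at least 50%. Their detection therefore largely follows from the gate and is no separate check of the classes. The neutrophil class was not alike in all libraries. Its least detected marker was in 30.5% of cells with 2FF and 25.9% with 2DG plus anti-PD-L1, against 44.1% to 47.9% in the others. The part of this difference in the neutrophil values was not tested. Libraries shared 16 to 34 cell barcodes per pair. The control library stood apart from the others: 33.5% of its cells were neutrophils (95% binomial interval by Clopper-Pearson 32.6% to 34.5%, 3043 cells), against 2.74% to 5.12% in the 5 treated libraries (247 to 472 cells). Each comparison with control therefore rests on 1 mouse whose makeup differed. With 1 library per treatment no test was possible, all intervals are exact 95% intervals for counting error, and a difference between libraries cannot be told apart from a difference between mice.

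Neutrophils had the highest level of Il1a, Il1b, Il1f9, Il1rn, Il1rap and Il1r2 in each of the 6 libraries, among classes with at least 50 cells in every library. The plot of levels by class shows these neutrophil peaks, the narrow range of Il1f9, and the different distributions of Il18, Il1r1 and Il1r2.

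**Figure D1:**
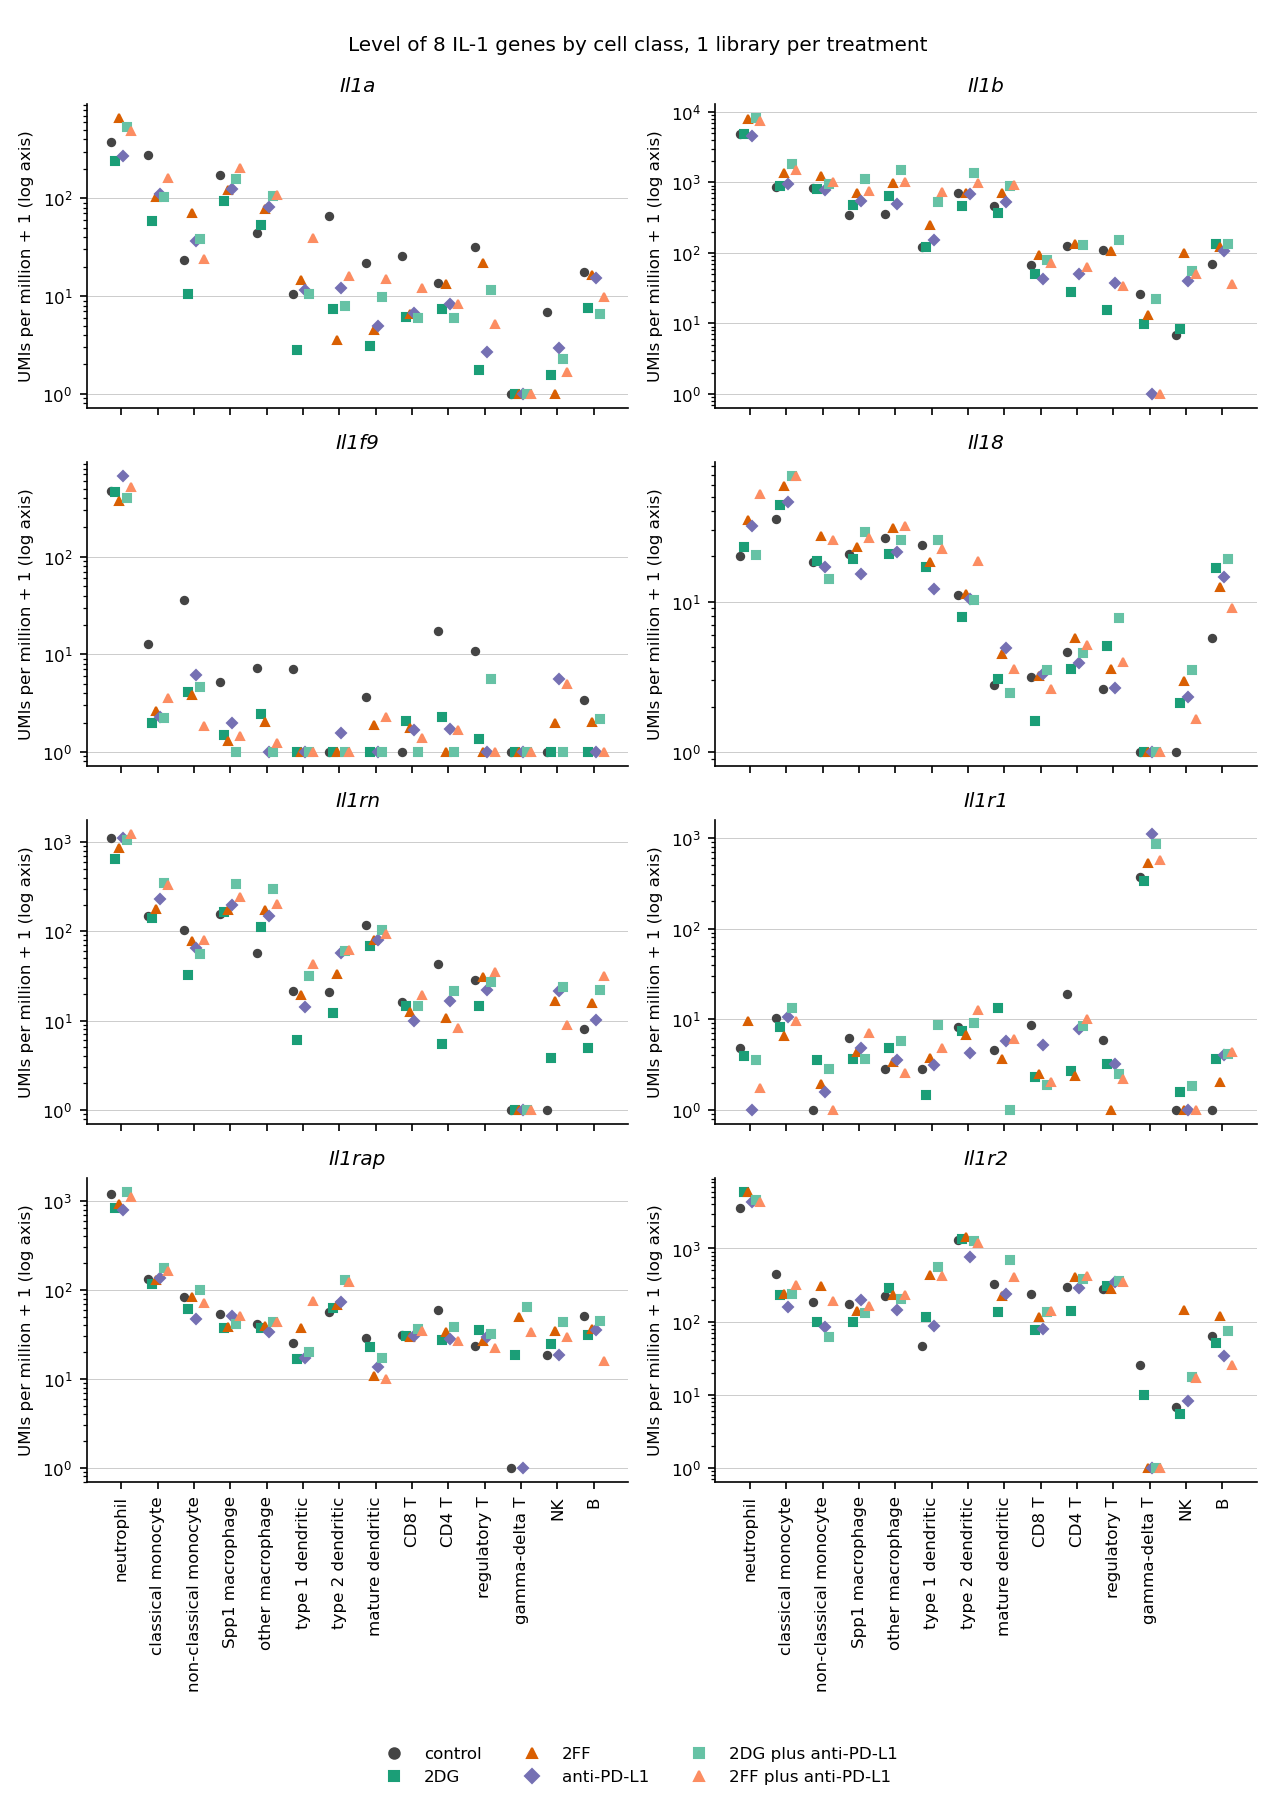
Level of each of the 8 genes (CPM plus 1, log axis) in 14 gated cell classes, 1 point per library. Il1f9 sits between 369 and 674 CPM in neutrophils and at 34.6 or less in the other classes with at least 50 cells in every library, Il1r1 peaks in gamma-delta T cells (7 to 19 cells per library), and Il1r2 is also high in type 2 dendritic cells.

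Il1b in neutrophils was at 4821 CPM in control (interval 4788 to 4855), 4838 with 2DG, 7943 with 2FF, 4515 with anti-PD-L1, 8260 with 2DG plus anti-PD-L1 (8058 to 8465) and 7500 with 2FF plus anti-PD-L1. Thus 3 libraries, 2FF and both combinations, lay between 7500 and 8260, and the other 3 between 4515 and 4838. The share of neutrophils with an Il1b UMI was 86.1% to 97.5%, and 78.6% to 94.8% after each cell was thinned to 1000 UMIs. In CD8 T cells, which are not a known source, the share was 4.72% to 14.4% (median depth 6022 to 8132 UMIs per cell, against 3857 in control neutrophils), and their Il1b level was 0.931% to 1.39% of that in neutrophils. These UMIs sat in few cells, 496 UMIs in 64 of 1357 cells with 2DG and 1345 in 184 of 2041 with 2FF, and whether free RNA or doublets gave them was not tested.

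In classical monocytes Il1b was at 873.9 CPM in control, 881 with 2DG, 1352 with 2FF, 965 with anti-PD-L1, 1798 with 2DG plus anti-PD-L1 and 1514 with 2FF plus anti-PD-L1. The same 3 libraries were the highest. Macrophages had 351 CPM in control, 545 with 2DG, 811 with 2FF, 523 with anti-PD-L1, 1310 with 2DG plus anti-PD-L1 and 835 with 2FF plus anti-PD-L1. The control library was lowest, and the 2DG plus anti-PD-L1 library was 3.73-fold above it (3.61 to 3.86). Il1b was detected in 49.9% of control macrophages and in 78.2% of those of the 2DG plus anti-PD-L1 library (21.4% and 53.4% when thinned). In type 2 dendritic cells it ranged from 466 with 2DG to 1348 with 2DG plus anti-PD-L1, and in mature dendritic cells from 362 with 2DG to 932 with 2FF plus anti-PD-L1.

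Il1a had a different order of libraries. Neutrophils held it at 373 CPM in control (364 to 383), 239 with 2DG, 665 with 2FF (625 to 707), 269 with anti-PD-L1, 538 with 2DG plus anti-PD-L1 and 482 with 2FF plus anti-PD-L1. The 2DG and anti-PD-L1 libraries were below control and the other 3 above. In classical monocytes control was highest, at 274.9 (268 to 282), with 57.2 for 2DG, 103 for 2FF, 110.4 for anti-PD-L1, 102 for 2DG plus anti-PD-L1 and 160.4 for 2FF plus anti-PD-L1. The share of monocytes with an Il1a UMI was 47.96% in control and 13.6% to 31.9% in the treated libraries, and 17.6% against 4.16% to 11.4% when thinned to 1000 UMIs.

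Control monocytes held Il1a at 73.6% of the neutrophil level, while S100a8, an abundant neutrophil gene, stood in them at 3.27% of its neutrophil level and Retnlg at 0.806%. In the treated libraries Il1a stood at 15.4% to 41.1%, S100a8 at 0.613% to 1.42% and Retnlg at 0.0211% to 0.147%. The part of neutrophil RNA in the monocyte values was not tested. Few cells carried most of it: the tenth of monocytes with the most Il1a held 60.3% of its UMIs in control and 68.2% to 92.2% in the treated libraries. Among macrophages, those with at least 2 of Spp1, Gpnmb and Arg1 had more Il1a than the others in 6 of 6 libraries, by 4.0-fold in control (3.4 to 4.73, from 172 against 43.1 CPM) and by 1.49-fold to 1.88-fold in the treated libraries. An Il1a UMI was found in 30.5% to 45.1% of these Spp1 macrophages, and in 25.2% to 43.6% of neutrophils, which had fewer UMIs per cell. Il1b was lower in these Spp1 macrophages than in other macrophages in the 2DG, 2FF and both combination libraries, by 0.729-fold to 0.752-fold, close to equal in control (0.978-fold, 0.916 to 1.04), and higher with anti-PD-L1 (1.11-fold).

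Il1f9 UMIs came mostly from neutrophils. Its level there was 469 CPM in control, 460.3 with 2DG, 369 with 2FF, 674 with anti-PD-L1 (621 to 730), 403 with 2DG plus anti-PD-L1 and 515 with 2FF plus anti-PD-L1. The anti-PD-L1 library was highest and 2FF lowest, whereas 2FF was above anti-PD-L1 for Il1b and Il1a. Neutrophils held 72.2% to 87.0% of its UMIs in every library, including those where they were 2.74% to 5.12% of cells. In classical monocytes Il1f9 was at 11.7 CPM in control, 2.5% of the neutrophil level, between the 3.27% of S100a8 and the 0.806% of Retnlg, and at 0.96 to 2.58 CPM in the treated libraries, from 8 to 45 UMIs. Whether monocytes made these transcripts was not tested, and no change is read from them.

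Il18 differed from the other ligands in its source, with the highest level in classical monocytes. There it was at 34.5 CPM in control, 42.6 with 2DG, 57.7 with 2FF, 44.7 with anti-PD-L1, 67.7 with 2DG plus anti-PD-L1 and 67.5 with 2FF plus anti-PD-L1, so control was lowest and both combinations highest. Monocytes were above neutrophils in 6 of 6 libraries, although the ranges overlap, since neutrophils had 19.2 to 50.8. Macrophages had 17.1 to 27.3. Between 42.3% and 58.1% of Il18 UMIs were in classical monocytes. The neutrophil value of 2FF plus anti-PD-L1 (50.8, from 70 UMIs) was the one neutrophil value past 2-fold over control, where 315 UMIs gave 19.2.

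Il1rn, the antagonist, was at 1121 CPM in neutrophils of control, 649.8 with 2DG, 864 with 2FF, 1110 with anti-PD-L1, 1062 with 2DG plus anti-PD-L1 and 1239 with 2FF plus anti-PD-L1. The 2DG and 2FF libraries were the lowest. In classical monocytes it was at 148 in control, 140 with 2DG, 179 with 2FF, 232 with anti-PD-L1, 350.2 with 2DG plus anti-PD-L1 (340 to 361) and 326 with 2FF plus anti-PD-L1, and in macrophages at 123 in control, 140.1 with 2DG, 172 with 2FF, 174 with anti-PD-L1, 319 with 2DG plus anti-PD-L1 and 229 with 2FF plus anti-PD-L1. Both combinations were highest in monocytes and in macrophages. Mature dendritic cells had 68.4 to 116 CPM, and type 2 dendritic cells 11.3 to 61.2. Among macrophages of control, Spp1 macrophages had 2.79-fold the Il1rn of the others (2.41 to 3.24), against 0.989-fold to 1.44-fold in the treated libraries.

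The balance of antagonist and ligand was followed as Il1rn UMIs per Il1b UMI within a class, a ratio of 3′ tag counts that are not divided by length and that does not depend on the class total. Neutrophils had 0.232 in control (0.229 to 0.236), 0.134 with 2DG, 0.109 with 2FF, 0.246 with anti-PD-L1, 0.129 with 2DG plus anti-PD-L1 and 0.165 with 2FF plus anti-PD-L1. The 4 libraries with a glycan inhibitor were below both others, and their intervals, which cover counting error within 1 library per arm, did not overlap. Across processing settings control was at 0.216 to 0.233 and anti-PD-L1 at 0.209 to 0.246. The 4 libraries with an inhibitor were at 0.0985 to 0.180. In classical monocytes the ratio was 0.169 in control, 0.159 with 2DG, 0.133 with 2FF, 0.241 with anti-PD-L1, 0.195 with 2DG plus anti-PD-L1 and 0.215 with 2FF plus anti-PD-L1, so that the 3 libraries with anti-PD-L1 were highest. Macrophages had 0.351 in control and 0.212 (2FF) to 0.333 (anti-PD-L1) in the treated libraries. In each of these classes, with macrophages pooled, 2FF was lowest, and each combination was below anti-PD-L1 alone. The macrophage split differed. Outside the Spp1 gate control had the lowest ratio, from 216 Il1rn and 1366 Il1b UMIs, whereas among Spp1 macrophages control had the highest.

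**Figure D2:**
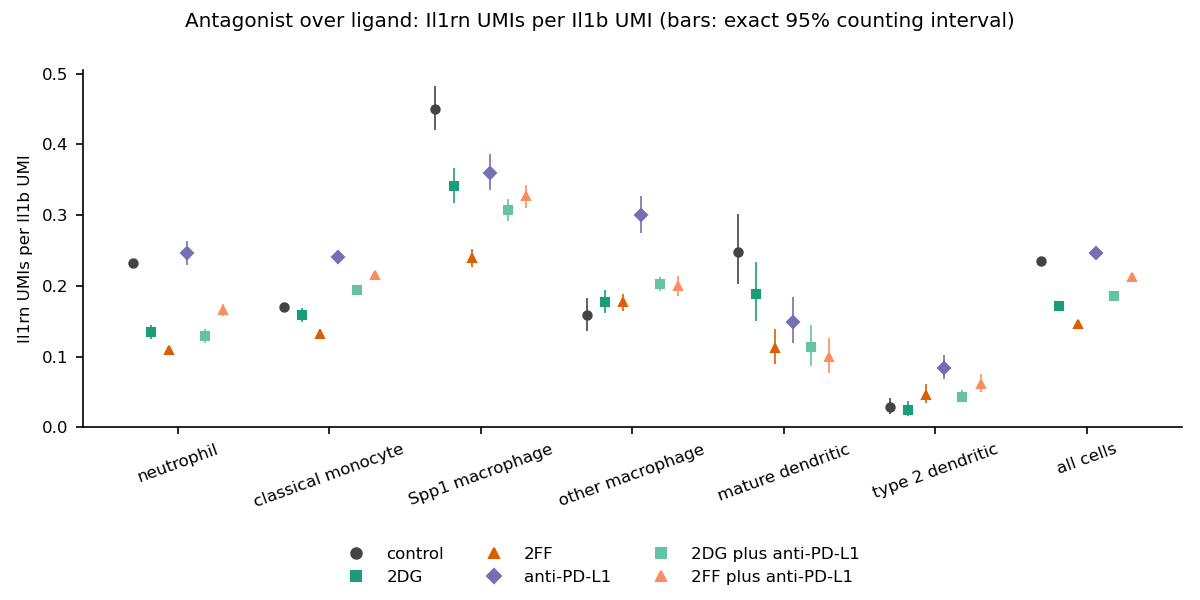
Il1rn UMIs per Il1b UMI (linear axis from 0) in 6 cell classes and in all cells, 1 point per library, with exact 95% counting intervals as bars. In neutrophils control (0.232) and anti-PD-L1 (0.246) lie above the 4 libraries with 2DG or 2FF (0.109 to 0.165), and Spp1 macrophages of control have the highest ratio (0.451). Among other macrophages control has the lowest ratio.

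Il1r1, the signalling receptor, was scarce in the classes with enough cells to order. It stood at 5.56 to 12.4 CPM in classical monocytes, 3.0 to 4.53 in macrophages and 0 to 8.52 in neutrophils. T cells left after the CD8, CD4, regulatory and gamma-delta gates had 16.2 to 54.9 CPM, and 1.85% to 4.66% of them carried a UMI. Gamma-delta T cells were few, 7 to 19 per library, and had 371 CPM in control (208 to 612), 336 with 2DG, 525 with 2FF, 1111 with anti-PD-L1 (794 to 1513), 859 with 2DG plus anti-PD-L1 and 574 with 2FF plus anti-PD-L1. Their lowest value was above the highest of any class with 50 cells or more, from 15 to 43 UMIs per library. These UMIs sat in 4 to 7 cells per library, and the top 1 or 2 cells held 25% to 71.4% of them. The CPM intervals count UMIs and do not cover this spread between cells, so no order of libraries is read from them. Il1r1 was detected in 35.3% to 71.4% of gamma-delta T cells, with intervals as wide as 18.4% to 90.1% in control. Fibroblast-gated cells, 0 to 8 per library, had 32.2 to 304 CPM where present, and 0 cells were gated as endothelial, so stromal cells, which are known for this receptor, were scarcely sampled.

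The co-receptor gene Il1rap was highest in neutrophils, at 1183 CPM in control, 835 with 2DG, 921 with 2FF, 783 with anti-PD-L1, 1266 with 2DG plus anti-PD-L1 and 1093 with 2FF plus anti-PD-L1. Classical monocytes followed with 116 to 175 and did not overlap with neutrophils. In type 2 dendritic cells it was at 55.1 in control, 61.1 with 2DG, 66.6 with 2FF, 72.0 with anti-PD-L1, 129.6 with 2DG plus anti-PD-L1 and 122 with 2FF plus anti-PD-L1. The combinations were thus 2.35-fold (1.81 to 3.09) and 2.21-fold (1.69 to 2.92) above control there. In these comparisons 680 of 6574 and 646 of 6518 genes were past 2-fold in either direction. Of 5 members counted in each, 2 were past 2-fold higher and 1 lower. The control class had 92 cells, and its least detected gating marker was in 10.9% of them, against 27.4% to 41.9% in the treated libraries. The part of this difference in the class was not tested.

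Il1r2, the decoy, was highest in neutrophils, with 3608 CPM in control (3579 to 3637), 5955 with 2DG, 5938 with 2FF, 4305 with anti-PD-L1, 4643 with 2DG plus anti-PD-L1 and 4373 with 2FF plus anti-PD-L1. Control was lowest, and 2DG and 2FF alone were highest, 1.65-fold above it in both cases. Between 88.2% and 97.9% of neutrophils had an Il1r2 UMI, and 78.7% to 95.1% had UMIs of both Il1r2 and Il1b. Classical monocytes showed another order: 440.5 in control (432 to 449), 232 with 2DG, 236 with 2FF, 156 with anti-PD-L1, 235 with 2DG plus anti-PD-L1 and 313 with 2FF plus anti-PD-L1, so that control was highest. Type 2 dendritic cells were the next class after neutrophils, with 1312 in control, 1338 with 2DG, 1422 with 2FF, 770 with anti-PD-L1, 1281 with 2DG plus anti-PD-L1 and 1170 with 2FF plus anti-PD-L1. Their anti-PD-L1 library was the lowest, as in monocytes, and their range did not overlap with that of neutrophils or of CD4 T cells.

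The decoy was also found in T cells. Regulatory T cells had 278 CPM in control, 302.9 with 2DG, 277 with 2FF, 345 with anti-PD-L1, 357 with 2DG plus anti-PD-L1 and 349 with 2FF plus anti-PD-L1, and 39.7% to 53.4% of them had a UMI. CD4 T cells outside that gate had 140.4 to 418, a range that contains that of regulatory T cells, so these neighbours did not differ in order. CD8 T cells had 74.9 to 239 CPM and NK cells, 23 to 442 per library, 4.5 to 144, with a UMI in 13.1% to 24.6% and 2.61% to 6.86% of cells. As a share of the neutrophil level in the same library, Il1r2 stood at 4.66% to 8.02% in regulatory T cells, 2.36% to 9.56% in CD4 T cells and 1.26% to 6.62% in CD8 T cells. For S100a8 these shares were 0.0114% to 0.433%, 0.00933% to 1.34% and 0.0221% to 0.353%, and for Il1b 0.297% to 2.25%, 0.565% to 2.56% and 0.931% to 1.39%. The part of neutrophil RNA or doublets in these T cell values was not tested. Most CD8 T cell UMIs were held by few cells: the tenth with the most had 89.9% to 94.4%. In neutrophils of control there were 938 Il1r2 UMIs per Il1r1 UMI (733 to 1221, tag counts not divided by length) and with 2FF 697 (408 to 1310), while the other 4 libraries had 0 to 4 Il1r1 UMIs. The 13 Il1r1 UMIs of the 2FF neutrophils sat in 3 of 472 cells, and the 63 of control in 42 of 3043. These intervals count UMIs and do not cover the spread between cells. The ratio was 16.1 to 47.6 in classical monocytes, highest in control, and 41.4 to 57.0 in macrophages, with overlapping intervals.

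Il1r2 overlaps Gm16894, an antisense gene at chr1:40076228-40085851 inside the annotated Il1r2 gene, and Gm16894's start lies 242 bases before the RefSeq start of Il1r2. In neutrophils Gm16894 had 209 CPM in control and 137 to 264 in the treated libraries, or 1 UMI for every 17.3 to 31.9 UMIs of Il1r2. Which strand these reads came from was not tested.

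Over all cells of a library, most members were lower in the treated libraries than in control. Il1b was at 1637 CPM in control, 489.6 with 2DG, 844 with 2FF, 535 with anti-PD-L1, 1034 with 2DG plus anti-PD-L1 and 958 with 2FF plus anti-PD-L1, so control was the highest. Il1r2 was at 1156 in control and 271 to 395 in the treated libraries, Il1f9 at 123 in control and 6.79 to 13.3, and Il1rn at 385 in control and 84.3 to 204. A gene was counted as past 2-fold where the ratio of its CPM plus 5 exceeded 2-fold in either direction, among genes with at least 50 UMIs in the pair of libraries. Members past 2-fold were all lower: 6 of 8 with 2DG (beside 8.03% of all genes past 2-fold), 5 with 2FF (6.61%), 6 with anti-PD-L1 (7.07%), 4 with 2DG plus anti-PD-L1 (7.2%) and 4 with 2FF plus anti-PD-L1 (5.65%). Cell makeup moved with these values. Neutrophils held 66.8% of Il1b UMIs in control and 9.71% to 22.4% in the treated libraries, 65.95% against 6.71% to 17.4% for Il1rn, and 70.8% against 18.1% to 36.2% for Il1r2. From the summed values alone, fewer neutrophils and less RNA per cell cannot be told apart. Within neutrophils, Il1b was at 4821 CPM in control and 4515 to 8260 in the treated libraries. Il1f9 was there at 469 in control and 369 to 674 in the treated libraries. The values within classes that follow are divided by the UMIs of that class alone, although S100a8 in classical monocytes, as a share of its neutrophil level, was also highest in the control library.

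**Figure D3:**
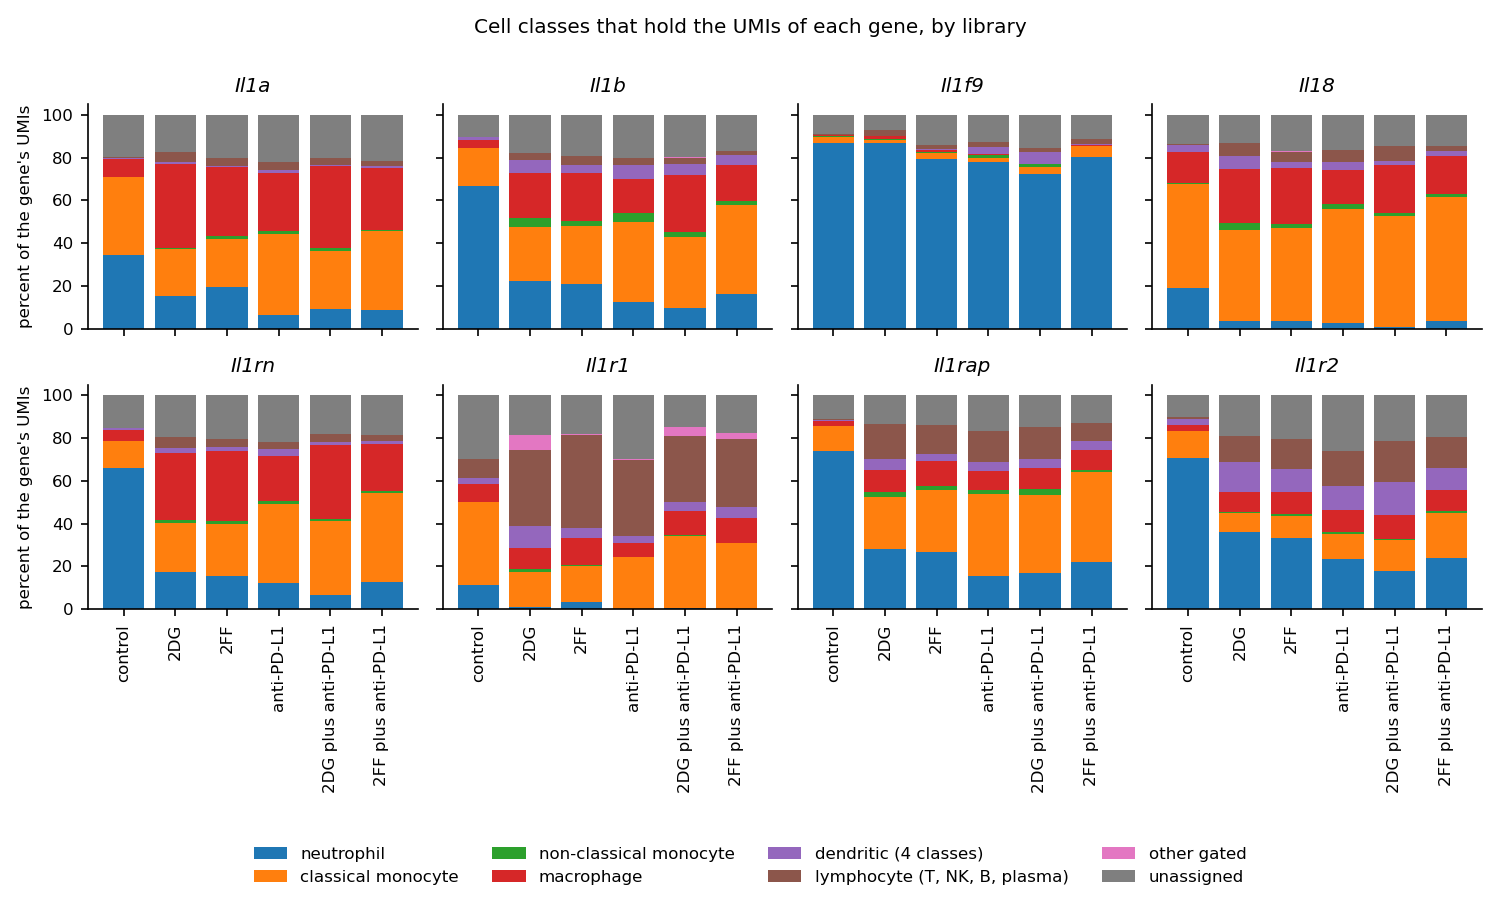
Percent of each gene's UMIs (bars stacked to 100) held by each group of cell classes in each library. Neutrophils hold 66.8% of Il1b UMIs in control and at most 22.4% in the treated libraries, but 72.2% or more of Il1f9 UMIs in every library.

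Within neutrophils few members were past 2-fold over control: 0 of 8 with 2DG (11.6% of all genes past 2-fold), 0 with 2FF (12%), 0 with anti-PD-L1 (9.27%), 0 with 2DG plus anti-PD-L1 (11.6%) and 1, Il18, with 2FF plus anti-PD-L1 (7.5%). The share of members was near or below that of all genes. Il1r2 was above control in 5 of 5 libraries, with log2 ratios of 0.26 to 0.72, and Il1b in 4 of 5, with -0.10 to 0.78. The median gene lay at 0.00 to 0.19 on the same scale. The summed level of 11 dissociation and stress genes was 14781 CPM in control neutrophils and 10599 to 13607 in the treated ones, and its part in these values was not tested.

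Within classical monocytes more members were past 2-fold. With 2DG these were 2 of 8 (6.58% of all genes), with 2FF 2 (6.16%), with anti-PD-L1 3 (5.77%), with 2DG plus anti-PD-L1 4 (7.63%) and with 2FF plus anti-PD-L1 2 (4.93%), or 13 of 40 values. These values repeat the same 8 genes against the same control library and are not independent. Il1a was lower in 5 of 5 treated libraries, with log2 ratios of -2.17 with 2DG, -1.38 with 2FF, -1.28 with anti-PD-L1, -1.39 with 2DG plus anti-PD-L1 and -0.76 with 2FF plus anti-PD-L1. Il1f9 accounted for 5 of the 13 values, at the low levels described above, from which no change is read. Il1r2 was below control in 5 of 5 and past 2-fold with anti-PD-L1 (-1.47). Il1rn was past 2-fold higher with 2DG plus anti-PD-L1 (1.22) and with 2FF plus anti-PD-L1 (1.11), and Il1b with 2DG plus anti-PD-L1 (1.04). This last value was 0.91 when 1 more marker was required for the class and 0.98 when centred on the median gene. Beside these values, the stress list summed to 8791 CPM in control monocytes and 8164 to 10171 in the treated ones, and S100a8 in monocytes was at 3.27% of its neutrophil level in control and 1.35% with 2DG. Their part was not tested.

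Within macrophages Il1b was above control in 5 of 5 libraries, with log2 ratios of 0.63 with 2DG, 1.20 with 2FF, 0.57 with anti-PD-L1, 1.89 with 2DG plus anti-PD-L1 and 1.24 with 2FF plus anti-PD-L1 (0.99 with cells thinned to 1000 UMIs). Il1rn was also above control in 5 of 5 and past 2-fold with 2DG plus anti-PD-L1 (1.33). These are pooled macrophages, and the split differed. Outside the Spp1 gate Il1rn was at 56.4 CPM in control and 112 to 300 in the treated libraries. Spp1 macrophages had 157 in control and 162 to 340 in the treated libraries. They were 599 of 950 macrophages in control and 592 of 1397 with 2DG plus anti-PD-L1, and the part of this makeup was not tested. The members past 2-fold were 0 of 8 with 2DG (2.33% of all genes), 1 with 2FF (3.79%), 0 with anti-PD-L1 (2.29%), 2 with 2DG plus anti-PD-L1 (4.9%) and 1 with 2FF plus anti-PD-L1 (3.12%). Il1a was between -0.75 and 0.39, Il1rap between -0.37 and -0.03, and Il1r2 between -0.17 and -0.02. With 2DG, Il1r2 was at 98.0 CPM in Spp1 macrophages and 289 in the others, against 174 and 223 in control. The stress list was at 8621 CPM in control macrophages and 6605 to 10679 in the treated ones, highest with 2DG plus anti-PD-L1, the library that was also highest for Il1b and Il1rn, and its part was not tested.

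**Figure D4:**
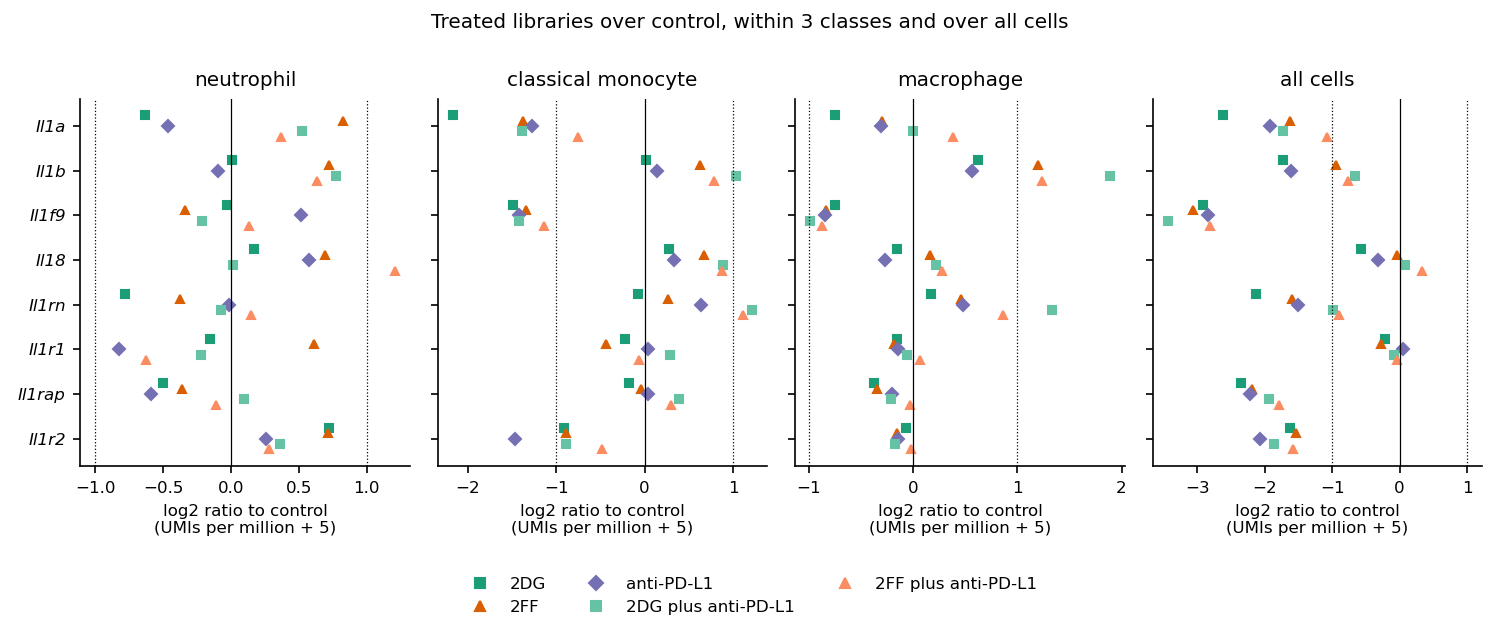
log2 ratio of each treated library to control (CPM plus 5) for the 8 genes in neutrophils, classical monocytes, macrophages and all cells, where dotted lines mark 2-fold and the panels have different horizontal ranges. Over all cells most genes lie to the left, while within macrophages Il1b lies at 0.57 to 1.89 and within monocytes Il1a at -2.17 to -0.76.

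The combinations were also compared with their single agents, which does not involve the control library. Compared with anti-PD-L1 alone, 2DG plus anti-PD-L1 had more Il1b in neutrophils (1.83-fold, 1.76 to 1.90), classical monocytes (1.86-fold, 1.82 to 1.91) and macrophages (2.5-fold, 2.43 to 2.58). Among members with enough UMIs to be counted, 0 of 6 were past 2-fold in neutrophils (5.69% of all genes), 0 of 7 in monocytes (0.591%) and 1 of 7, Il1b, in macrophages (1.12%). Compared with 2DG alone, Il1b was 1.71-fold, 2.04-fold and 2.41-fold higher in the same classes, and Il1rn was 2.5-fold higher in monocytes and 2.27-fold in macrophages. Here 1 of 6 members counted, Il1a, was past 2-fold in neutrophils (3.97%), 2 of 7, Il1b and Il1rn, in monocytes (1.09%), and 2 of 7, Il1b and Il1rn, in macrophages (0.848%). Il1a in neutrophils was at 0.94 by the mean share over cells, and in monocytes Il1b was at 0.97 with 1 more marker required or with thinned cells. The stress list was also higher in 2DG plus anti-PD-L1 than in either single agent. In macrophages it was at 10679 CPM, against 6754 with 2DG and 6605 with anti-PD-L1, and its part was not tested.

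The 2FF combination differed less from its single agents. Compared with anti-PD-L1 alone, Il1b was 1.66-fold higher in neutrophils (1.60 to 1.72), 1.57-fold in classical monocytes and 1.60-fold in macrophages, and 0 of 7 members counted were past 2-fold in neutrophils (3.44% of all genes), 0 of 8 in monocytes (0.602%) and 0 of 7 in macrophages (0.67%). Il1r2 in monocytes was 2.01-fold higher (1.91 to 2.12) with a log2 ratio of 0.99, short of 2-fold, once 5 CPM was added. Compared with 2FF alone, Il1b was at 0.944-fold in neutrophils (0.920 to 0.970), 1.12-fold in monocytes and 1.03-fold in macrophages (1.0 to 1.06), with 0 of 7 members past 2-fold in neutrophils (4.33%), 0 of 8 in monocytes (0.355%) and 0 of 7 in macrophages (0.421%). Thus Il1b was within 1.12-fold of its 2FF level in these 3 classes when anti-PD-L1 was given with 2FF, and 1.71-fold to 2.41-fold its 2DG level when anti-PD-L1 was given with 2DG. The interval of each of these ratios covers counting error within 1 library per arm.

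Other genes of the pathway were counted from fixed lists. Of 12 further family genes, Il33, Il1f5, Il1f6, Il1f8 and Il1f10 were at 3.33 CPM or less in neutrophils, monocytes and macrophages. Il18bp, the soluble inhibitor of IL-18, was at 17.8 CPM in control neutrophils and 42.2 to 67.4 in the treated ones, and at 19.97 in control macrophages and 50.2 to 88.5 in the treated ones. It was past 2-fold higher in 5 of 5 treated libraries in both classes and in 3 of 5 in classical monocytes. Over all genes 7.5% to 12% were past 2-fold in either direction in neutrophils, 2.29% to 4.9% in macrophages and 4.93% to 7.63% in monocytes. Il18bp is 1 gene named from its list by size of change, and these comparisons share 1 control library. Of the IL-18 receptor genes, Il18r1 was at 281 to 369 CPM in NK cells and 149.5 to 278 in CD8 T cells, against 2.19 to 6.91 in classical monocytes. Il18rap was at 502.5 to 717 in NK cells and 302 to 397 in neutrophils.

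Of 10 genes of maturation and release, 9 were tested in neutrophils, where 2 were past 2-fold higher with 2DG, 3 with 2FF, 1 with anti-PD-L1, 2 with 2DG plus anti-PD-L1 and 1 with 2FF plus anti-PD-L1, and none lower. Over all genes of these comparisons 11.6%, 12%, 9.27%, 11.6% and 7.5% were past 2-fold in either direction, so 1 of 9 is near that share. Nlrp1b, an inflammasome sensor, was at 14.8 CPM in control neutrophils and 38.9 to 79.1 in the treated ones. Casp1, the caspase that cuts pro-IL-1 beta, was at 17.5 in control neutrophils and 27.8 to 53.1 in the treated ones, and at 38.6 in control monocytes and 55.9 to 96.3. Nlrp3, the sensor most studied for IL-1 beta release, was at 1356 to 2023 in neutrophils, lowest in control. In the signal chain of 14 genes, 0 to 2 per comparison with control were past 2-fold higher and 0 lower in the 3 classes, beside 2.29% to 12% of all genes in either direction. Myd88, the adaptor, had log2 ratios of 0.84 to 1.24 over control in classical monocytes.

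Response genes are targets of the pathway, and 14 of 15 had enough UMIs to be counted. Whether IL-1 or other signals set their levels here was not tested. In classical monocytes 6 were past 2-fold lower with 2DG (median log2 ratio -0.90), 6 with 2FF (-0.41), 6 with anti-PD-L1 (-0.82), 4 with 2DG plus anti-PD-L1 (0.09) and 3 with 2FF plus anti-PD-L1 (-0.07), beside 0, 1, 1, 2 and 0 higher. Over all genes 6.58%, 6.16%, 5.77%, 7.63% and 4.93% were past 2-fold in either direction. Cxcl3, a neutrophil-attracting chemokine, was the furthest in each, with log2 ratios of -5.24, -4.44, -3.58, -4.14 and -2.88. In neutrophils 7, 1, 5, 1 and 1 of these genes were past 2-fold lower and 2, 2, 2, 3 and 2 higher, in the same order of treatments, beside 11.6%, 12%, 9.27%, 11.6% and 7.5% of all genes in either direction, with Icam1, an adhesion molecule, at 1.53 to 3.0 in all 5. With anti-PD-L1 added to 2DG, 9 of 14 response genes were past 2-fold higher in monocytes (1.09% of all genes in either direction), 6 of 13 in neutrophils (3.97%) and 6 of 14 in macrophages (0.848%), and 0 lower. With anti-PD-L1 added to 2FF the counts were 3 (0.355%), 0 (4.33%) and 2 (0.421%) higher, and 0 lower. The stress list also rose with anti-PD-L1 added to 2DG, from 8164 to 10171 CPM in monocytes, 10599 to 13607 in neutrophils and 6754 to 10679 in macrophages. Added to 2FF, it went from 8458 to 9386, 12729 to 11934 and 7089 to 8845 in the same classes. Its part in these counts was not tested.

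The genes most like each member were ranked, as a description, by Pearson's r of log2 levels (CPM plus 5) over 81 sums of a class in a library. These sums share libraries and hold at least 50 cells each. Il1f9 was most like Retnlg (0.97), which is a gating marker of neutrophils, Stfa2l1 (0.97) and Mirt2 (0.96). Il1b was most like Oasl2 (0.96), Mcl1 (0.94) and Ptafr (0.94). Il1a was most like Cxcl2 (0.93), Ninj1 (0.93) and Clec4d (0.93), and Il1rn was most like Slc7a11 (0.93), Tarm1 (0.92) and Tnfaip2 (0.91). Il1rap was most like Rab44 (0.92), A530064D06Rik (0.90) and Sycp2 (0.89), Il1r2 like Gm16894 (0.94), Cass4 (0.83) and Lmnb1 (0.82), and Il18 like Tpd52 (0.90), Aldh3b1 (0.90) and Lrrc25 (0.89). Il1r1 had no close match among these sums, with Pard3 (0.64), Ifi208 (0.59) and Nsg2 (0.57). Gamma-delta T cells, where Il1r1 peaked, had too few cells to be included. In the classes left, most Il1r1 levels were near the 5 CPM added before the log. Its low r values therefore cannot show that no gene is like it. Among the members themselves, Il1b and Il1rn were the most alike (0.88) and Il1r1 was between -0.08 and 0.17 with each of the others.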

How the data were processed

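Single-cell libraries of 6 mice, 1 per treatment, were made with the 10x Chromium 3′ v3.1 kit. The authors deposited UMI counts per gene and barcode from Cell Ranger (STAR, mm10). The file headers and the study's methods give version 7.0.0, and the submitters' processing notes 3.1.0. Total counts were 61859753 to 73885214 UMIs per library.

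Cells were kept with at least 250 genes and at most 5% mitochondrial UMIs. A cell was given a class where at least 50% of that class's markers were detected and it led each other class by 10 percentage points. Macrophages with at least 2 of 3 genes (Spp1, Gpnmb, Arg1) were called Spp1 macrophages. The gating rule was set after marker detection, not member levels, had been seen. No doublet caller was run. Summed counts were expressed as CPM, with exact 95% Poisson, binomial (Clopper-Pearson) or conditional intervals. Cells are not replicates, so no test was made. Ratios added 5 CPM, and a gene needed 50 or more UMIs over the pair of libraries.

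Members, lists and named genes (all 8 members, up to 4 genes per list by size of log2 ratio, and the 3 most alike genes) were chosen with earlier results of these data known. A few list genes were named for their role after their values were seen: Casp1, Nlrp3, Myd88, Icam1, Il18r1 and Il18rap. Upstream sequences are from RefSeq (GRCm38.p6), where the 8 members matched 11 windows, and gene positions from GENCODE. Scripts used Python 3.11.15, numpy 2.4.6, scipy 1.17.1 and pandas 2.3.3, and were tested on simulated data.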

Additional observations from a re-analysis of the deposited data

Results flagged for a closer look

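Ratios of a library with anti-PD-L1 to its counterpart without it are listed where they had opposite signs between backgrounds. None of these differences was tested, since each arm is 1 library. Il1a in neutrophils had a log2 ratio of -0.467 for anti-PD-L1 over control, 1.154 for 2DG plus anti-PD-L1 over 2DG and -0.460 for 2FF plus anti-PD-L1 over 2FF. In classical monocytes Il1a had -1.279 over control, 0.777 over 2DG and 0.622 over 2FF. Il1r2 in classical monocytes had -1.472 over control and 0.400 over 2FF. For both genes control was the highest library in classical monocytes, so every treated library was below it there.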

How the results depend on the processing

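No paired analysis was possible because each treatment has 1 library. Of 24 member values past 2-fold, none changed sign under the 9 alternatives where it could be computed, and 16 of 19 (thinned cells) to 24 of 24 stayed past 2-fold. The 13 values of classical monocytes over control and the 3 of macrophages between combinations and single agents stayed within 1.5 times. In neutrophils over control the count of 1 became 3 with 1 CPM added, 2 without the top 5% of cells by UMIs, 4 with cells thinned to 1000 UMIs and 3 with the mean share over cells. Between combinations and single agents the neutrophil count of 1 became 2 with no UMI minimum, 2 with 1 more marker required, 2 without the top 5% of cells and 0 with the mean share, and the monocyte count of 2 became 1 with 1 more marker and 0 with thinning. In macrophages over control the count of 4 became 9 with 1 CPM added and 9 with the mean share. Treated libraries below control in Il1rn per Il1b UMI went from 4 to 5 in neutrophils with 1 more marker and 5 with thinning, and from 2 to 1 in monocytes with thinning. For Il1r2 per Il1r1 UMI in macrophages, 2 became 1 without the top 5% of cells, 4 with thinning and 4 with the mean share. The cause of these shifts was not tested. Depth limits Il1r1, at 0 to 63 UMIs per library in neutrophils and 32 to 59 in macrophages, and Il1f9 outside neutrophils, at 0 to 56 in macrophages.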
